A study of Schmidtea mediterranea with 60 samples.

Results

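smedwi-1 (transcript dd_Smed_v6_659_0_1) was followed through 48 h of regeneration in the planarian Schmidtea mediterranea, a flatworm able to rebuild whole body regions after a cut. It was chosen by its ID, as 1 of 28742 transcripts in the count table, and the rule used no threshold on its values. The count table holds IDs alone, and the study's text does not pair this ID with the name. Polyadenylated RNA had been sequenced from anterior-facing wounds of post-pharyngeal (tail) fragments of the clonal asexual strain CIW4. All animals had been given 4 feedings of liver with double-stranded RNA to trigger RNA interference (RNAi), the loss of RNA of the same sequence, and were cut 7 days after the last of them. The controls received double-stranded RNA of unc-22, a gene of the nematode Caenorhabditis elegans. The other animals received RNA matching bmp4, the gene of a bone morphogenetic protein (Bmp), a signal released by muscle that patterns the back-to-belly axis. Wounds were collected at once (0 hpa, hours post-amputation) or after 3 or 6 h, and later at 16 h, 24 h and 48 h, which gave 12 groups of 5 replicates and 60 libraries. Each replicate pooled 5 wounds, so the spread between replicates is that between pools of wounds, and the sources used here do not say whether the pools came from separate RNAi experiments.

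smedwi-1 encodes a Piwi protein, a member of the Argonaute family that works with small RNAs and is known for silencing transposons in germ cells and stem cells. In planarians its transcript is the standard marker of neoblasts, the dividing stem cells from which all adult tissues are renewed and from which new tissue is built after injury. Neoblasts divide throughout the body in uncut animals, and after an injury that removes tissue they gather at the wound. By the study's text, remnants of this transcript can also be found in progenitors that no longer divide. In bulk RNA, as here, fewer neoblasts in the wound piece, fewer such progenitors and less smedwi-1 RNA per cell cannot be told apart. The time course addressed whether the wound response of the neoblast marker needs bmp4.

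Total counts ranged from 5.92 M to 23.9 M per library (M, mega) with a median of 17.3 M, and the second smallest library held 12.6 M. smedwi-1 had 3254 to 25598 counts per library, so counting error alone was 1.75% of the value at the lowest count and 0.625% at the highest. No 2 libraries of a group were alike within counting error (chi-square per degree of freedom of at least 3.39). Levels are given in CPM, counts divided by a library size that was scaled with TMM factors, which set libraries to a common level over most transcripts. The targeted transcript went against the label in part of the libraries of bmp4 RNAi animals, which are therefore called bmp4 RNAi-labelled here. bmp4 lay above the level of every control library of the same time in 5 of 5 such libraries taken at 0 hpa and 4 of 5 taken at 3 hpa, and later in 2 of 5 both at 16 and at 24 hpa. It lay below every control library in 5 of 5 at 6 hpa (0.487 to 1.84 against 2.25 to 3.47 CPM) and in 5 of 5 at 48 hpa (0.519 to 2.99 against 4.61 to 6.18 CPM). The sources used here do not say whether reads from the fed RNA were counted. equinox, an epidermal transcript, lay below every control library in 5 of 5 bmp4 RNAi-labelled libraries at each of the 6 times.

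In wounds collected at once after the cut, the smedwi-1 levels of the conditions did not differ beyond the spread between replicates. At 0 hpa the control libraries held 578, 563, 641, 520.2 and 547 CPM in replicates 1 to 5, a mean of 569.9 ± 45.1 CPM (SD, n = 5). The bmp4 RNAi-labelled libraries held 608, 552, 579.8, 634 and 518 CPM at that time, a mean of 579 ± 45.7 CPM (SD, n = 5). The groups overlapped nearly throughout, and neoblast marker RNA made up 0.0555% of the counts of the controls and 0.0568% of those of the bmp4 RNAi-labelled libraries. The log2 fold change between the conditions was 0.022, with a standard error (SE) of 0.067 and a 95% confidence interval from -0.11 to 0.16 (adjusted p = 0.914, edgeR). By the same test 11.4% of the 18510 transcripts tested were called at 0 hpa, where called means an adjusted p under 0.05.

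No change of smedwi-1 was called over the first 6 h. At 3 hpa the controls held 591, 585, 558, 550.2 and 574 CPM (mean 572 ± 17.3, SD, n = 5), and the bmp4 RNAi-labelled libraries held 586, 643, 572, 543 and 588 CPM (mean 586 ± 36.3, SD, n = 5). At 6 hpa the values were 587, 584, 527, 621 and 619 CPM in the controls (mean 587 ± 37.8, SD, n = 5) and 592, 577, 746, 543 and 549 CPM in the bmp4 RNAi-labelled libraries (mean 601 ± 83.2, SD, n = 5). Replicate 3 of that last group stood apart from the others, and the other 19 libraries of these times lay between 527 and 643 CPM, close to the 518 to 641 CPM of 0 hpa. Against 0 hpa, the log2 fold change of the controls was 0.0043 at 3 hpa (95% confidence interval -0.13 to 0.14, adjusted p = 0.986, edgeR) and 0.044 at 6 hpa (-0.091 to 0.18, adjusted p = 0.694). In the bmp4 RNAi-labelled libraries it was 0.019 at 3 hpa (-0.12 to 0.15, adjusted p = 0.902, edgeR) and 0.055 at 6 hpa (-0.079 to 0.19, adjusted p = 0.678). The RNAi difference was 0.037 at 3 hpa (-0.098 to 0.17, adjusted p = 0.834, edgeR) and 0.033 at 6 hpa (-0.10 to 0.17, adjusted p = 0.792). Many other transcripts had moved by then, with 25.1% of those tested called in the controls at 6 hpa against 0 hpa and 13.1% in the bmp4 RNAi-labelled libraries.

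**Figure D1:**
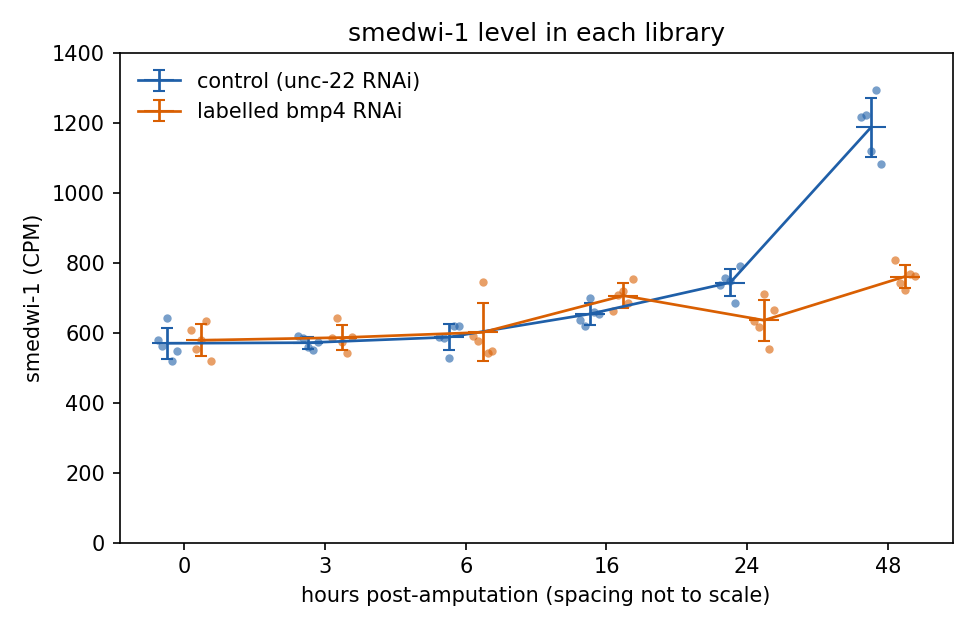
smedwi-1 level (CPM) in each of the 60 libraries from 0 to 48 hpa. Points are libraries, horizontal marks and lines are group means, and bars are SD over 5 libraries. The conditions overlap up to 16 hpa and separate at 48 hpa, where the 5 control libraries lie between 1083 and 1294 CPM and the 5 bmp4 RNAi-labelled libraries between 721 and 809 CPM.

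By 16 hpa smedwi-1 had risen in both conditions. The controls held 636, 620.2, 700.5, 658 and 653 CPM (mean 654 ± 30.2, SD, n = 5), with 3 of the 5 libraries above all controls of 0 hpa. The bmp4 RNAi-labelled libraries held 662, 709, 720.4, 686 and 755 CPM (mean 706 ± 35.2, SD, n = 5), and all 5 lay above the 5 libraries of their own condition at 0 hpa. The log2 fold change from 0 hpa was 0.20 in the controls (SE 0.067, adjusted p = 0.0184, edgeR), a step in which 32.4% of transcripts were called, and 0.29 in the bmp4 RNAi-labelled libraries (SE 0.067, adjusted p = 0.00065), where 28.2% were called. In the controls the call was lost without replicate 4 of 0 hpa (0.17, adjusted p = 0.057) or without replicate 3 of 16 hpa (0.17, adjusted p = 0.0532). Exact permutation of log2(CPM + 1) between the groups (two-sided), adjusted over the 16 comparisons made, gave p = 0.0544 for the controls and p = 0.0254 for the bmp4 RNAi-labelled libraries, and the smallest unadjusted p of this test was 0.00794.

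At 16 hpa the mean of the neoblast marker was higher, not lower, after feeding of bmp4 RNA, by an amount that was not called. Its level was 1.08-fold that of the controls, and 3 of 5 bmp4 RNAi-labelled libraries lay above every control. The RNAi difference of 0.11 on the log2 scale (95% confidence interval -0.023 to 0.25) had an adjusted p of 0.237 (edgeR) in a comparison with 19.2% of transcripts called, and the exact permutation test gave an adjusted p of 0.0794. Without the 2 libraries in which bmp4 stood above all controls it was 0.065 (adjusted p = 0.664). The difference was called with the leading component of variation within groups as a covariate, at the same size of 0.11 (adjusted p = 0.0367, edgeR). That component was taken from deviations from the group means, smedwi-1 included, so it could hardly change the size. The call came from an SE of 0.042 in place of 0.067.

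The conditions parted at 24 hpa. The controls went on to 738, 756, 747, 685 and 792 CPM (mean 744 ± 38.4, SD, n = 5), while the bmp4 RNAi-labelled libraries held 632, 615, 711, 554 and 665 CPM (mean 636 ± 58.3, SD, n = 5). 4 of the 5 bmp4 RNAi-labelled libraries lay below every control, and replicate 3 lay among the controls. The RNAi difference was -0.23 on the log2 scale (SE 0.067, 95% confidence interval -0.36 to -0.092, adjusted p = 0.012, edgeR), a level of 85.5% of the control mean, in a comparison with 6.5% of transcripts called lower. The exact permutation test gave an adjusted p of 0.0423. The call rested in part on 1 library and on the scaling. It was lost without replicate 4 of the bmp4 RNAi-labelled libraries, the lowest in smedwi-1 (-0.18, adjusted p = 0.0645), and with library totals in place of TMM factors (-0.21, adjusted p = 0.0688). Without the 2 libraries with bmp4 above all controls it was -0.26 (adjusted p = 0.0194). Against 0 hpa the controls had risen by 0.38 on the log2 scale (adjusted p = 5.05e-06, edgeR), with 33.6% of transcripts called. The bmp4 RNAi-labelled libraries differed from their own 0 hpa level by 0.14 (95% confidence interval 0.0014 to 0.27, adjusted p = 0.115, edgeR), with 32.6% called, and this change was called once replicate 4 was left out (0.18, adjusted p = 0.0416). From 16 to 24 hpa their change was -0.15 (95% confidence interval -0.29 to -0.017, adjusted p = 0.0938, edgeR, 22.2% called), and it was called without replicate 3 of 24 hpa (-0.19, adjusted p = 0.0363). The test of the difference between the conditions in their change from 0 to 24 hpa gave -0.25 (-0.44 to -0.058) and was not called (adjusted p = 0.206, edgeR), with 1.91% of transcripts called.

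At 48 hpa the conditions no longer overlapped. The 48 hpa controls held 1217, 1224, 1119.5, 1294 and 1083 CPM (mean 1187 ± 85.2, SD, n = 5), and the bmp4 RNAi-labelled libraries held 809, 741, 721, 768 and 763 CPM (mean 761 ± 32.9, SD, n = 5). The lowest control lay far above the highest bmp4 RNAi-labelled library. smedwi-1 was 1.56-fold lower after feeding of bmp4 RNA (log2 fold change -0.64, SE 0.067, 95% confidence interval -0.78 to -0.51, adjusted p = 8.73e-12, edgeR). In this comparison 35.9% of transcripts were called and 18.6% were called lower, so a call alone was common at 48 hpa. 1010 of the 18510 transcripts tested had a lower log2 fold change than smedwi-1. The exact permutation test gave an adjusted p of 0.0254, from the smallest p that 252 splits allow. The value ranged from -0.67 to -0.61 when each of the 10 libraries was left out in turn and was -0.66 with library totals.

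**Figure D2:**
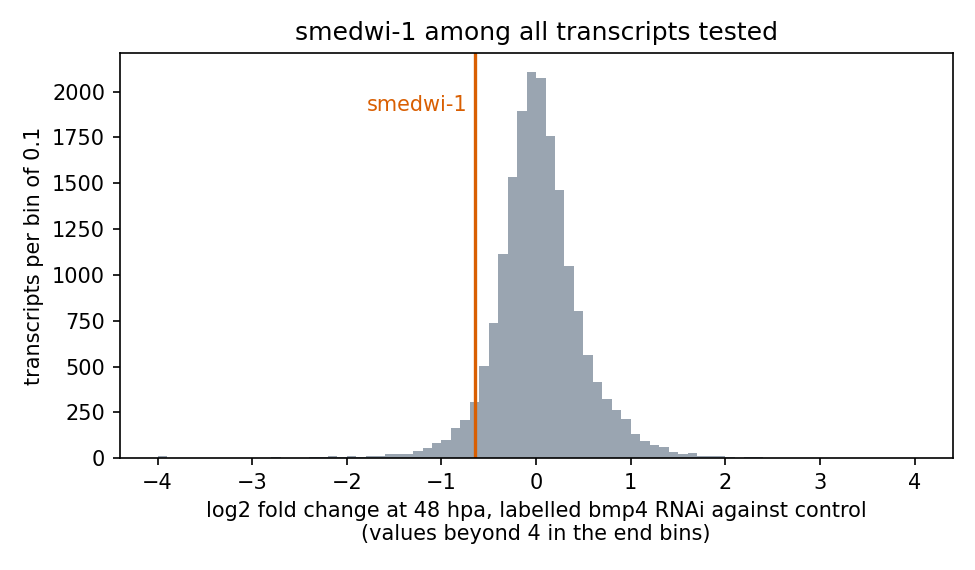
Number of transcripts (per bin of 0.1) by log2 fold change at 48 hpa, bmp4 RNAi-labelled libraries against controls, for the 18510 transcripts tested. The line marks smedwi-1 at -0.64, with 1010 transcripts to its left.

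Within the controls smedwi-1 rose 2.08-fold from 0 to 48 hpa (log2 fold change 1.06, SE 0.068, 95% confidence interval 0.92 to 1.19, adjusted p = 3.51e-20, edgeR). This was among the larger rises of that time, since 500 transcripts had a higher log2 fold change, in a comparison with 41.1% of transcripts called and 20.9% called higher. In the bmp4 RNAi-labelled libraries the rise was 1.31-fold (log2 fold change 0.39, SE 0.067, 95% confidence interval 0.26 to 0.53, adjusted p = 8.62e-06, edgeR), with 25.6% of transcripts called, 13.1% called higher and 2360 with a higher log2 fold change. All 5 libraries of 48 hpa lay above all 5 of 0 hpa in each condition. Library totals moved the median of all transcripts in these comparisons from -0.0064 to 0.13 in the controls and from 0.022 to 0.13 in the bmp4 RNAi-labelled libraries. With them 5597 transcripts were called higher and 2297 lower in the controls (3871 and 3745 with TMM factors), and 4594 and 1267 in the bmp4 RNAi-labelled libraries (2434 and 2302). The rise of smedwi-1 was then 1.19 and 0.50 on the log2 scale, both called.

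The smaller rise after feeding of bmp4 RNA was itself tested. The change from 0 to 48 hpa differed between the conditions by -0.66 on the log2 scale (SE 0.095, 95% confidence interval -0.85 to -0.47, adjusted p = 3.35e-07, edgeR), in a test that called 18% of transcripts and 9.52% lower. On the CPM scale the controls had gained 618 CPM and the bmp4 RNAi-labelled libraries 182 CPM, which is 29.5% of the control gain. At 3, 6 and 16 hpa the same test gave differences of 0.015, 0.012 and 0.090 with adjusted p from 0.772 to 1 (edgeR), and it called 0.0378%, 0.313% and 0.767% of transcripts. Averaged over the 6 times, the RNAi difference was -0.11 (SE 0.027, adjusted p = 0.000661, edgeR), with 43.5% of transcripts called. That average was -0.076 with library totals (adjusted p = 0.0544).

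**Figure D3:**
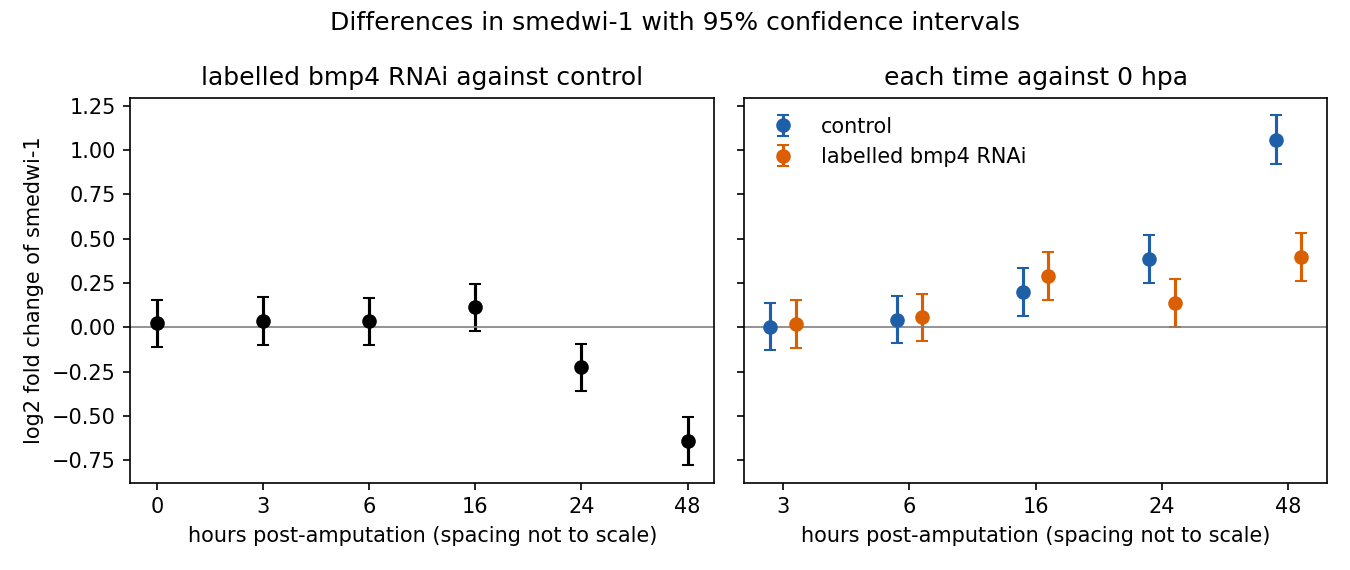
log2 fold change of smedwi-1 (points) with 95% confidence intervals (bars) from the edgeR fit over 60 libraries. On the left, bmp4 RNAi-labelled libraries against controls at each time, with intervals below 0 at 24 and 48 hpa, and on the right, each time against 0 hpa in each condition, with values of 1.06 in the controls and 0.39 in the bmp4 RNAi-labelled libraries at 48 hpa.

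The steps between neighbouring times show when the marker moved. In the controls the change was 0.039 from 3 to 6 hpa, 0.15 from 6 to 16 hpa (adjusted p = 0.117, edgeR), 0.19 from 16 to 24 hpa (adjusted p = 0.179) and 0.68 from 24 to 48 hpa (SE 0.067, adjusted p = 1.88e-11). 514 transcripts rose by more over that last step, in which 18.6% of transcripts were called, and all 5 controls of 48 hpa lay above those of 24 hpa. The steps from 6 to 16 and from 16 to 24 hpa were called when only the 10 libraries compared were fitted (adjusted p = 0.0295 and 0.0164, edgeR). In the fit over all 60 libraries these steps called 15.1% and 1.57% of transcripts. In the bmp4 RNAi-labelled libraries the changes were 0.036 from 3 to 6 hpa, 0.23 from 6 to 16 hpa (adjusted p = 0.0148, edgeR), -0.15 from 16 to 24 hpa and 0.26 from 24 to 48 hpa (adjusted p = 0.00747), in steps that called 13% of transcripts from 6 to 16 hpa and 9.63% from 24 to 48 hpa. Both called steps were lost when only their 10 libraries were fitted (adjusted p = 0.143 and 0.104, edgeR). The step from 6 to 16 hpa was also lost without replicate 4 or 5 of 6 hpa or replicate 5 of 16 hpa, with adjusted p from 0.0556 to 0.074 (edgeR), and it was 0.31 without replicate 3 of 6 hpa.

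Ordered from the lowest to the highest mean, the 12 groups were control 0 hpa, control 3 hpa, bmp4 RNAi 0 hpa, bmp4 RNAi 3 hpa, control 6 hpa, bmp4 RNAi 6 hpa, bmp4 RNAi 24 hpa, control 16 hpa, bmp4 RNAi 16 hpa, control 24 hpa, bmp4 RNAi 48 hpa and control 48 hpa, where bmp4 RNAi is the label. Each neighbouring pair in that order overlapped in its libraries, with the exception of the last, where the means were 427 CPM apart. The mean of the bmp4 RNAi-labelled libraries at 48 hpa was thus next to that of the controls of 24 hpa.

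Libraries of a group differed in smedwi-1 along with other measures of the library. Over the 60 libraries, the deviation of log2 smedwi-1 from its group mean correlated with that of the share of counts on 8 mitochondrial transcripts, with Pearson's r = -0.50 and Spearman's rho = -0.47 (permutation p within groups, adjusted over 4 relations, 0.0018 and 0.00068). Without the 2 libraries farthest in that share r was -0.52. Within a group, libraries with a higher mitochondrial share thus tended to hold less of the neoblast marker. This did not hold between groups. In the controls the mean share was 0.239% at 0 hpa and 0.378% at 48 hpa, when smedwi-1 was also higher. The deviation of smedwi-1 also followed the leading component of variation within groups (r = -0.80, rho = -0.74, permutation p = 4e-05 for both after adjustment, from the smallest p that 100000 permutations can give, and r = -0.74 without the 2 farthest libraries). That component holds 12.5% of the variance within groups and was computed from all transcripts tested, smedwi-1 included. No relation was found with the log2 total count (r = 0.15, rho = 0.12, permutation p = 0.35 and 0.51 after adjustment), and r was 0.084 without the 2 farthest libraries. Over the 30 bmp4 RNAi-labelled libraries, smedwi-1 did not follow the bmp4 level within groups (r = 0.058, rho = 0.058, permutation p = 0.76 and 0.77 after adjustment, and r = -0.021 without the 2 farthest libraries). Because bmp4 went against the label in part of these libraries, its level may not measure the extent of RNAi. This relation therefore cannot decide whether smedwi-1 depends on bmp4. At 48 hpa the mitochondrial share was 0.320% to 0.559% in the controls and 0.278% to 0.711% in the bmp4 RNAi-labelled libraries. With this share as a covariate, a setting chosen after seeing the data, the RNAi difference at 48 hpa was -0.58 (adjusted p = 1.67e-11, edgeR) and that at 24 hpa was -0.22 (adjusted p = 0.00422).

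Other transcripts had a pattern like that of smedwi-1. Likeness was measured as Pearson's r of the mean log2 CPM over the 12 groups, a description in which all points come from the same 60 libraries. The RNAi differences given below for transcripts chosen by r come from those libraries too. Their direction at 48 hpa follows largely from the choice, and their p-values are no separate support. 167 of the 18509 other transcripts tested (0.902%) had an r above 0.9 and 24 had an r above 0.95, while 46 had an r below -0.9. Of the 167, 161 were called lower in the bmp4 RNAi-labelled libraries at 48 hpa, where 18.6% of all transcripts were. That count follows largely from the choice by likeness, since smedwi-1 was itself lower there. Over the 60 single libraries 13 transcripts had an r above 0.9, over deviations from the group means none did (the highest r was 0.88), and with library totals 394 did, all 167 among them. bmp4 and equinox had an r of 0.18 and 0.17 with smedwi-1.

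The highest r of all (0.98) was that of dd_Smed_v6_34144_0_1, a transcript of low abundance. It stood at 0.138 ± 0.116 CPM in the controls of 0 hpa and 3.61 ± 0.579 CPM in those of 48 hpa, against 0.206 ± 0.0861 and 0.791 ± 0.404 CPM in the bmp4 RNAi-labelled libraries (SD, n = 5 each). Its RNAi difference at 48 hpa was -2.16 (SE 0.34, adjusted p = 4.72e-07, edgeR). Outside the controls of 48 hpa, the group highest in smedwi-1, no group mean of this transcript was above 0.791 CPM. The filter on low counts may have kept it mainly through that group. Its r and its call may therefore follow in part from the filter. The next was dd_Smed_v6_1258_0_1 (r = 0.98), which rose from 771.5 ± 28.3 to 1305 ± 80.6 CPM in the controls and stood at 784 ± 39.6 and 862 ± 40.8 CPM in the bmp4 RNAi-labelled libraries (SD, n = 5 each), an RNAi difference of -0.60 at 48 hpa (SE 0.050, adjusted p = 2.86e-15, edgeR). This abundant transcript also followed smedwi-1 within groups (r = 0.81 over deviations), which the rare one did not (r = 0.24). Neither has a name in the sources used here.

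The opposite pattern was led by dd_Smed_v6_1754_0_1 and dd_Smed_v6_257_0_1, both with r = -0.97. dd_Smed_v6_1754_0_1 fell from 50.4 ± 7.32 to 16.5 ± 0.697 CPM in the controls and stood at 47.0 ± 5.05 and 35.5 ± 7.50 CPM in the bmp4 RNAi-labelled libraries (SD, n = 5 each). It was higher in the latter at 48 hpa by 1.11 on the log2 scale (SE 0.11, adjusted p = 8.53e-13, edgeR). dd_Smed_v6_257_0_1 went from 589.8 ± 87.7 to 407 ± 37.2 CPM in the controls and from 633 ± 82.4 to 504 ± 71.6 CPM in the bmp4 RNAi-labelled libraries (SD, n = 5 each), with an RNAi difference of 0.31 at 48 hpa (SE 0.10, adjusted p = 0.0138, edgeR).

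Among the 570 tested transcripts that the annotation held here names by a best human match, the most alike were matches of LRRC4B, NOL4L and NUP54. LRRC4B is known in human as a synaptic adhesion protein, and NUP54 as a subunit of the central channel of the nuclear pore. The LRRC4B match (dd_Smed_v6_10042_0_1, r = 0.95) rose from 14.7 ± 3.33 to 28.7 ± 3.93 CPM in the controls and stood at 15.6 ± 2.68 and 16.7 ± 2.05 CPM in the bmp4 RNAi-labelled libraries (SD, n = 5 each), an RNAi difference of -0.78 at 48 hpa (SE 0.16, adjusted p = 4.91e-05, edgeR). The NOL4L match (dd_Smed_v6_10255_0_1, r = 0.93) rose from 13.96 ± 0.784 to 36.6 ± 2.96 CPM in the controls and from 14.8 ± 0.994 to 18.4 ± 0.664 CPM in the bmp4 RNAi-labelled libraries (SD, n = 5 each), a difference of -0.99 (SE 0.074, adjusted p = 3.12e-17, edgeR). For the NUP54 match (dd_Smed_v6_10347_0_1, r = 0.93) the difference was -0.34 (SE 0.062, adjusted p = 9.05e-06, edgeR).

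Since neoblasts are the dividing cells of the animal, transcripts whose best human match works in DNA replication, repair or cell division were set beside smedwi-1. Of 19 listed, 13 had enough counts to be tested. At 0 hpa none of the 13 was called between the conditions by edgeR or by DESeq2 (2 had an unadjusted edgeR p under 0.05). With 11.4% of all transcripts called by edgeR in that comparison, none among 13 says little. At 48 hpa 8 of 13 were called lower in the bmp4 RNAi-labelled libraries and none higher, by edgeR and by DESeq2 alike (median log2 fold change -0.36, against 0.011 over all transcripts tested). There edgeR called 18.6% of all transcripts lower and 17.3% higher. Over the time from 0 to 48 hpa 8 of 13 rose in the controls and none fell (median 0.37, with the same counts by DESeq2), while 1 rose and 1 fell in the bmp4 RNAi-labelled libraries (median 0.042). Over all transcripts tested 20.9% were called higher and 20.2% lower in the controls, and 13.1% and 12.4% in the bmp4 RNAi-labelled libraries. The change from 0 to 48 hpa itself differed between the conditions in 4 of 13, each with the lower value in the bmp4 RNAi-labelled libraries, where that test called 9.52% of all transcripts lower. With library totals 3 rose and none fell in the bmp4 RNAi-labelled libraries from 0 to 48 hpa (edgeR). Of the 18510 transcripts tested 4594 then rose and 1267 fell, so the 3 rises are near the share of all transcripts. With the leading component as a covariate, which acts mainly on the SE, 5 were called in place of 2. Calls over all transcripts were not counted in that setting. The match of CDC20, the activator of the anaphase-promoting complex in mitosis, rose from 13.4 to 27.1 ± 4.02 CPM in the controls and stood at 14.9 and 14.8 ± 2.05 CPM in the bmp4 RNAi-labelled libraries (SD, n = 5), an RNAi difference of -0.87 at 48 hpa (SE 0.12, adjusted p = 4.61e-08, edgeR). For the match of RNASEH2A, a subunit of an enzyme that removes RNA from DNA, the difference was -0.59 (SE 0.10, adjusted p = 3.42e-06, edgeR).

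Matches of ribosome assembly factors, which growing cells use to build ribosomes, were set beside them. At 48 hpa 9 of 16 were called lower and 1 higher in the bmp4 RNAi-labelled libraries (median -0.24), where 18.6% and 17.3% of all transcripts were. From 0 to 48 hpa 7 rose and 2 fell in the controls (median 0.16), beside 20.9% and 20.2% of all transcripts. In the bmp4 RNAi-labelled libraries 3 rose and 3 fell (median -0.021), near the 13.1% and 12.4% of all transcripts. The changes over time depended on the setting. With library totals 10 rose and 1 fell in the controls, beside 5597 and 2297 of the 18510 transcripts tested. In the bmp4 RNAi-labelled libraries 5 then rose and 1 fell, beside 4594 and 1267 of all transcripts. With the mitochondrial share as a covariate 1 of 16 was called in the latter, and calls over all transcripts were not counted in that setting. The most negative RNAi difference at 48 hpa was that of a NOL10 match (dd_Smed_v6_10561_0_1), at -0.61 (SE 0.11, adjusted p = 3.84e-06, edgeR), although this transcript rose from 0 to 48 hpa in the controls (0.82, adjusted p = 4.25e-09) and in the bmp4 RNAi-labelled libraries (0.36, adjusted p = 0.0109). The UTP23 match followed at -0.51 (SE 0.13, adjusted p = 0.00169). Another NOL10 match (dd_Smed_v6_10617_0_1) was not called, at -0.019 (SE 0.088, adjusted p = 0.894, edgeR). The PNO1 match was higher by 0.23 (SE 0.062, adjusted p = 0.00277, edgeR).

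**Figure D4:**
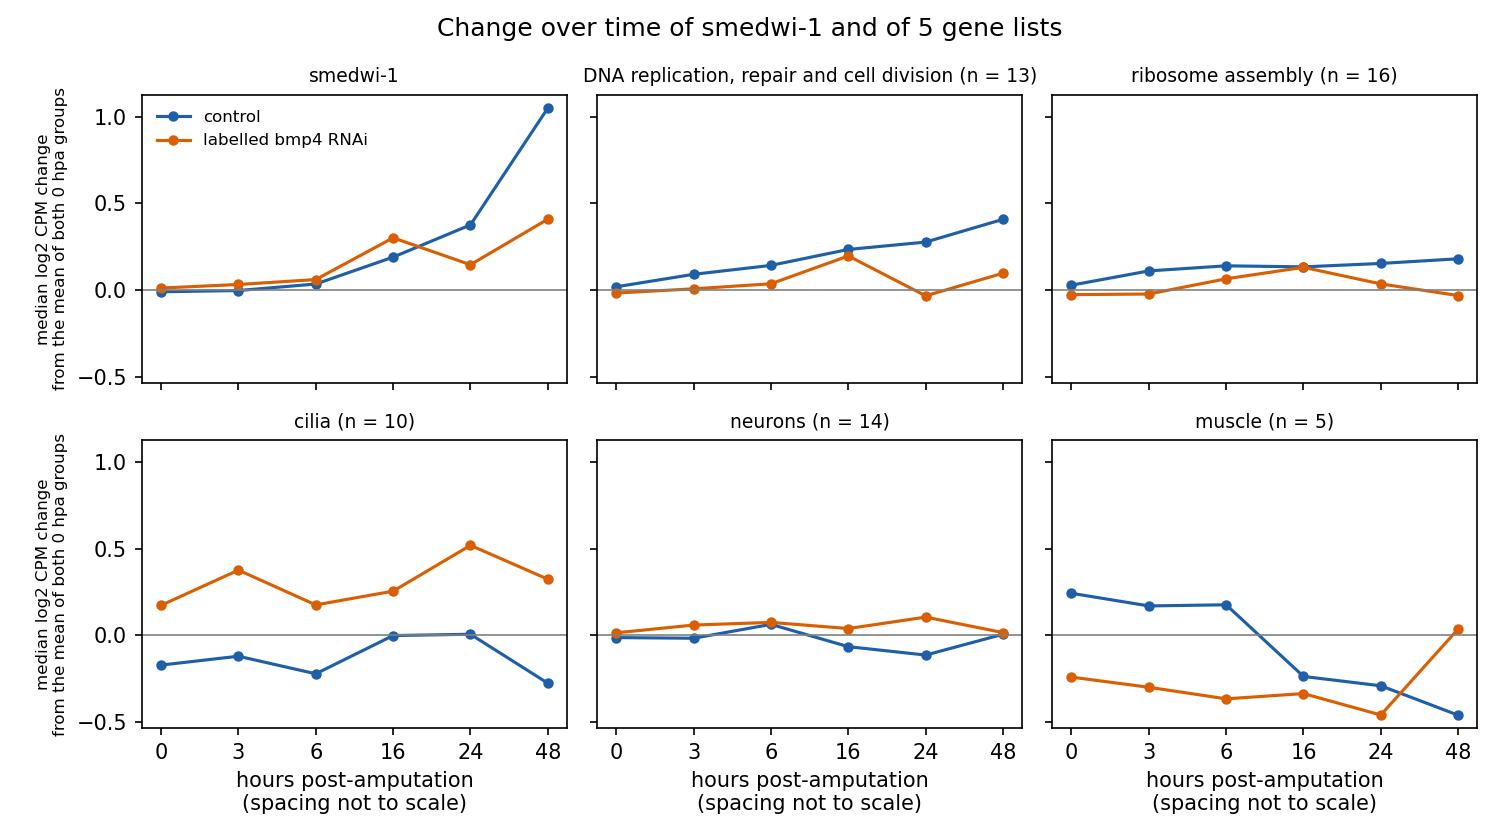
Median change in log2 CPM from the mean of both 0 hpa groups, by hpa, for smedwi-1 and for the tested members of 5 lists named by best human match (n in each panel title). Points are medians over list members of group means and carry no error bars. At 48 hpa the division list stands at 0.41 in the controls and 0.096 in the bmp4 RNAi-labelled libraries, while the cilia list is higher in the bmp4 RNAi-labelled libraries from 0 hpa on.

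Lists that stand for differentiated cells went other ways. Of 12 cilia matches (ciliated epidermis and the excretory system carry cilia in planarians), 10 were tested. 8 of the 10 were already called higher in the bmp4 RNAi-labelled libraries at 0 hpa (median 0.35), where 6.45% of transcripts were, and 9 were called higher at 48 hpa (median 0.62), where 17.3% were. Their summed level was 212 to 243 CPM in the controls and 288 to 394 CPM in the bmp4 RNAi-labelled libraries at 48 hpa, against 238 to 256 and 309 to 392 CPM at 0 hpa, and no tested member was at 0 in any group. The largest of these differences at 48 hpa were those of the matches of MAATS1 (0.96, SE 0.11, adjusted p = 4.84e-10, edgeR) and CFAP43 (0.79, SE 0.090, adjusted p = 1.35e-10), proteins of the ciliary axoneme. From 0 to 48 hpa 4 of 10 fell in the controls, where 20.2% of all transcripts were called lower. That direction depended on the scaling. With library totals 2 rose and 1 fell, beside 5597 and 2297 of the 18510 transcripts tested, so these 2 counts do not exceed the shares of all transcripts. Whether a different share of ciliated cells in the wound pieces has a part in the smedwi-1 difference was not tested.

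The 14 neuronal matches were split at 48 hpa, with 5 called higher and 2 lower in the bmp4 RNAi-labelled libraries (median 0.059), where 17.3% and 18.6% of all transcripts were, and summed levels of 302 to 320.3 CPM in the controls and 315 to 338 CPM in the bmp4 RNAi-labelled libraries. Among them, matches of the receptors GALR2 (0.46, SE 0.12, adjusted p = 0.00231, edgeR) and GRM3 (0.38, SE 0.11, adjusted p = 0.00444) were higher. Matches of the receptor subunits GRIA4 (-0.27, SE 0.072, adjusted p = 0.00254, edgeR) and GABRB2 (-0.26, SE 0.072, adjusted p = 0.00272) were lower. At 0 hpa GRIA4 stood at -0.42 (adjusted p = 1.51e-05, edgeR) and GABRB2 at 0.26 (adjusted p = 0.00975), the latter opposite in sign to 48 hpa. Of the 5 muscle matches 2 were higher and 2 lower at 48 hpa, against the same shares of all transcripts, namely LDB3 (1.14, SE 0.11, adjusted p = 3.44e-13, edgeR), FHL3 (0.81, SE 0.17, adjusted p = 1.27e-04), CAV3 (-2.09, SE 0.18, adjusted p = 2e-14) and ATP2A2 (-0.19, SE 0.076, adjusted p = 0.0492). At 0 hpa 3 of the 5 were already called lower (median -0.49), where 916 of the 18510 transcripts tested were. These were CAV3 (-1.73, adjusted p = 3.58e-08, edgeR), ACTN2 (-0.61, adjusted p = 8.36e-05) and LDB3 (-0.49, adjusted p = 0.000245), which was opposite in sign at 48 hpa. ACTN2 is named beyond the rule, having been chosen after its value was seen. Summed muscle levels at 48 hpa were 461 to 539 CPM in the controls and 411 to 458 CPM in the bmp4 RNAi-labelled libraries. The ATP2A2 match alone made up most of these sums, with means of 465 and 409 CPM. The sums therefore say little about the other muscle matches. None of the 8 mitochondrial transcripts was called at 48 hpa by edgeR, where 35.9% of all transcripts were and 1 of the 8 had an unadjusted p under 0.05. DESeq2 called 1 of them higher, and 3109 of the 18510 transcripts tested. All 8 differences were above 0, with a median of 0.40. From 0 to 48 hpa edgeR called 4 of the 8 higher in the bmp4 RNAi-labelled libraries and 2 in the controls. Of all transcripts 13.1% and 20.9% were called higher there.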

How the data were processed

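The authors sequenced 50-base reads, aligned them with bowtie (best alignment) to the dd_Smed_v6 transcriptome, counted them with coverageBed and summed contigs of an isotig. The deposited values are raw read counts per transcript, and strand use and the treatment of reads matching several contigs are not given in the sources used here, so reads of near-identical or antisense transcripts may be mixed. A workbook of the authors' own comparisons (fold changes and p-values) was not used. Groups came from the sample labels. Transcripts were filtered with filterByExpr (minimum count 10, minimum total 15), which kept 18510 of 28742 (99.9% of counts). Counts were fitted with edgeR 4.0.16 in R 4.3.3 (limma 3.58.1), with TMM factors of 0.926 to 1.12, a mean for each of the 12 groups over all 60 libraries and a robust quasi-likelihood test (two-sided, Benjamini-Hochberg over all transcripts tested in each comparison). This fit was checked on simulated counts. The biological coefficient of variation was 12.5% in common and 8.02% for smedwi-1. p-values measure the spread between pools of wounds. PCR copies cannot be told from molecules, so counting errors cover counting alone. log2 CPM used a prior count of 2, and permutation tests used log2(CPM + 1).

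smedwi-1 and the gene lists were chosen with earlier results of these data known. Lists were drawn up by the name of the best human match in a part of the study's annotation that names 730 transcripts, 570 of them tested; 9 members were dropped, before their values were seen, because their names came from a table whose columns were out of step with the IDs. Apart from smedwi-1, bmp4 and equinox, transcripts were named as the 2 highest and 2 lowest in likeness, the 3 highest with a human match, and up to 2 rises and 2 falls of each list at 48 hpa. Alternatives were other scalings, no filter, DESeq2 1.42.0, leaving out each library, a replicate block, the leading component within groups as a covariate, only the libraries compared, another pseudocount, and, added after seeing the data, the mitochondrial share as a covariate and leaving out libraries with bmp4 above all controls.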

Additional observations from a re-analysis of the deposited data

Results flagged for a closer look

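Replicate 3 of the bmp4 RNAi-labelled libraries at 6 hpa held 745.695 CPM of smedwi-1, far from the other 4 libraries of its group (543 to 592 CPM), with a gap of 0.759 of the whole range against a critical value of 0.71 for 5 libraries. Chance flags about 1 in 20 groups, and 12 groups were examined. This library also had the lowest mitochondrial share of all 60 (0.195%). The part of this in its smedwi-1 level was not tested. Without it the RNAi difference at 6 hpa was -0.057 in place of 0.033 on the log2 scale, not called in either case (edgeR).

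The change of smedwi-1 from 0 to 48 hpa differed between the conditions by -0.664467 on the log2 scale, by a test of that difference itself (adjusted p = 3.35e-07, edgeR).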

How the results depend on the processing

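Of 637 alternatives run over 30 results of smedwi-1, 581 kept direction and side of the threshold, 10 lost a call, 13 gained one and 33 changed the sign of a value that was not called. Every alternative kept the calls of the RNAi difference at 48 hpa, of the rise to 48 hpa in both conditions and of the difference between those rises. On the log2 scale, the change from 0 to 3 hpa in the controls was -0.0033 with DESeq2 size factors, -0.0096 with library totals (-0.0030 as a difference of log2(CPM + 1)), -0.0038 without a filter and -0.0033 with DESeq2. Without a filter, it was -0.0017 in the bmp4 RNAi-labelled libraries, and the interaction at 6 hpa was -0.0066. Library totals ended the calls of the RNAi difference at 24 hpa (-0.21, also -0.21 by the exact permutation test, adjusted p = 0.0726) and of the average (-0.076). The leading component was taken from deviations from the group means. It could hardly move a size, and the calls it added came from a smaller SE. The leading component as a covariate added calls of the RNAi difference at 16 hpa (0.11), the change from 0 to 24 hpa in the bmp4 RNAi-labelled libraries (0.14), the steps from 6 to 16 and 16 to 24 hpa in the controls (0.15 and 0.19) and from 16 to 24 hpa in the bmp4 RNAi-labelled libraries (-0.15), and the interaction at 24 hpa (-0.25). The mitochondrial share added the 2nd, 3rd and 4th of these (0.21, 0.17 and 0.23). Fits of only 10 libraries added the control steps from 6 to 16 and 16 to 24 hpa (0.15 and 0.19) and ended the steps from 6 to 16 and 24 to 48 hpa in the bmp4 RNAi-labelled libraries (0.23 and 0.26). Without libraries with bmp4 above all controls, which left 1 library at 3 hpa, assumed to vary like the other groups, the RNAi difference was -0.00079. The cause was not tested for any of these. The number of transcripts with r above 0.9 to smedwi-1 was 167 over group means, 13 over libraries, 0 over deviations and 394 with library totals.

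Leaving out each library in turn gave ranges of -0.0092 to 0.072, -0.0010 to 0.059 and -0.057 to 0.066 for the RNAi difference at 0, 3 and 6 hpa and -0.27 to -0.18 at 24 hpa. From 0 hpa the ranges were -0.022 to 0.053 at 3 hpa and 0.17 to 0.25 at 16 hpa in the controls, and -0.023 to 0.050, -0.031 to 0.093 and 0.094 to 0.18 at 3, 6 and 24 hpa in the bmp4 RNAi-labelled libraries. For the latter the steps ranged from -0.046 to 0.078 (3 to 6 hpa), 0.19 to 0.31 (6 to 16 hpa) and -0.19 to -0.10 (16 to 24 hpa). The interaction ranged from -0.038 to 0.043 at 3 hpa and -0.084 to 0.041 at 6 hpa.

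The replicate numbers did not pair the libraries: same-numbered libraries of 2 groups had a median correlation of deviations of -0.0041 (-0.36 to 0.48, 330 pairs), and 6 of 60 correlated best with their own number. A fit with the replicate number as a block gave -0.64 at 48 hpa and -0.23 at 24 hpa and changed no call of smedwi-1. With the block 3 of 5 muscle matches were called at 48 hpa in place of 4, and the called counts of the other 4 lists were the same.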
